A study of Homo sapiens with 2 samples.

Results

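GAD1, GAD2, SLC32A1, DLX1, DLX2, DLX5, DLX6, DLX6-AS1 and LHX6, the 9 genes described here, mark the GABAergic lineage. They were taken by name from a given list, and all 9 were among the 62704 genes counted in each of the 2 split-seq libraries of the series. Split-seq labels the RNA of fixed cells or nuclei in successive rounds of wells, so that a combination of well barcodes stands for 1 cell or nucleus. All samples were brain organoids of H9, an established human embryonic stem cell line. The cells library pooled 7 kinds of sample, namely control organoids (CO) at days 45, 55 and 70, organoids dissociated at day 45 and reaggregated (DISS) at days 48, 55 and 70, and organoids constrained in 3% agarose from day 13 (CONS) at day 55. The nuclei library held day 45 CO, processed whole or after dissociation, and its GEO treatment label reads Control/Dissociated/Embed. In each library 1 sample name covers every barcode, so no barcode could be assigned to a condition, a day or an organoid, and conditions were not compared.

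GABA is the main inhibitory transmitter of the brain. GAD1 and GAD2 encode the enzymes that make it from glutamate, and SLC32A1 encodes the transporter that loads it into vesicles. DLX1, DLX2, DLX5 and DLX6 are homeobox transcription factors that act in the ganglionic eminences of the ventral telencephalon, where the interneurons of the cortex are born. DLX6-AS1 is a long non-coding RNA of the DLX5/DLX6 locus, and LHX6 is a LIM homeobox factor of interneurons from the medial ganglionic eminence. Many, though not all, GABAergic neurons outside the telencephalon are specified by other factors. Among these are GATA2, GATA3, TAL1 and SOX14 in parts of the midbrain and diencephalon, and PAX2, LHX1 and LHX5 in the hindbrain and spinal cord.

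In GRCh38, with gene bounds from GENCODE release 44, GAD1 lies on the plus strand of chromosome 2 from 170813213 to 170861151, and GAD2 on the plus strand of chromosome 10 from 26216665 to 26304558. DLX1 (plus, from 172084740 to 172089677) and DLX2 (minus, from 172099438 to 172102900) are neighbours on chromosome 2. DLX6 (plus, from 97005553 to 97011040) and DLX5 (minus, from 97020396 to 97024950) form a like pair on chromosome 7. The DLX6-AS1 gene (minus, from 96955141 to 97014088) covers the whole of DLX6 on the opposite strand and ends before DLX5. How strand entered the counting is not given in the sources used here, so reads of DLX6 and DLX6-AS1 may not be told apart, and the same holds for GAD1 and the 3 annotated genes that overlap it on the opposite strand, among them ERICH2-DT. SLC32A1 (chromosome 20, plus, from 38724486 to 38729372) and LHX6 (chromosome 9, minus, from 122202577 to 122229626) overlap no other annotated gene.

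The 3 windows of 250 bases before RefSeq transcription starts (GRCh38.p14) shown here are those of DLX6-AS1 and GAD2, whose counts the results turn on, and of DLX2, a homeobox gene of the same list. Capitals mark TAATT, the core that many homeodomain proteins, DLX factors among them, recognise, on either strand (TAATT or AATTA). The windows are chr7:97014066-97014315 (minus strand), chr10:26216122-26216371 (plus strand) and chr2:172102901-172103150 (minus strand).
DLX6-AS1: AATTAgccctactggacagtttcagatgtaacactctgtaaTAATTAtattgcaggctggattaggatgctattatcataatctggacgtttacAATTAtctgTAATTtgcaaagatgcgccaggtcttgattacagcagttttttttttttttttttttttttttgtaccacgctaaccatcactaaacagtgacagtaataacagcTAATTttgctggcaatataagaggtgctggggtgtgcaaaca
GAD2: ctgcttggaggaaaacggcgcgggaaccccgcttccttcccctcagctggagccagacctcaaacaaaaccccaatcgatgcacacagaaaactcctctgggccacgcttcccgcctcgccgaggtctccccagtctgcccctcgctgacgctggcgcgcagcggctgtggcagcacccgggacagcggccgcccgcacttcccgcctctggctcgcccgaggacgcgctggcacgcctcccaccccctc
DLX2: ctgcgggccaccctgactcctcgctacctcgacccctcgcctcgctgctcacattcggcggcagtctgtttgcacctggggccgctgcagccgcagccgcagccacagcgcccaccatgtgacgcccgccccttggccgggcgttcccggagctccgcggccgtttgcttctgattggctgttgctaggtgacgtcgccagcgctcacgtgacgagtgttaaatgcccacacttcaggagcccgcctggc
The DLX6-AS1 window held 6 matches, 3 on each strand, of which 2 overlap in the run TAATTA. Windows were at hand for 8 of the 9 genes (11 windows, GAD2 with 2 and LHX6 with 3), and the other 10 windows held no match. Of all 35116 windows in the RefSeq table, 23.1% held at least 1 match and 0.191% held 6 or more. The DLX6-AS1 window was also poor in G and C (35.2%, against a median of 58% over all windows), and only 6.19% of windows had as little or less. A match describes letters and is not a binding site.

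A barcode entered the analysis if it had over 500 genes and over 1000 transcripts, with a mitochondrial share no higher than 20%, which left 20178 of 1303455 barcodes for cells and 14228 of 197446 for nuclei. The median depth was 2615 transcripts per cell and 3890 per nucleus, and the deepest barcodes held 648550 and 138422. No doublet caller was run. There were 99 kept barcodes with the same name in both libraries. Levels below are counts per 10000 transcripts with 95% exact Poisson intervals, and shares carry 95% exact (Clopper-Pearson) binomial intervals. Both cover counting error only, and SD values are between the 8 sub-libraries of the cells or the 2 of the nuclei, that is, technical spread.

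GABAergic genes were rare in both libraries, and GAD1 had the most counts. Levels are not scaled for gene length and are compared here between samples or barcodes, not between genes. The cells held 1601 GAD1 counts in 912 barcodes, a level of 0.102 per 10000 (0.0969 to 0.107; SD 0.0118, n = 8 sub-libraries). The nuclei held 1355 GAD1 counts in 549 barcodes, a level of 0.188 (0.178 to 0.198; SD 0.0164, n = 2 sub-libraries). GAD2 followed in the cells with 550 counts in 406 barcodes (0.0350; SD 0.0122), and DLX6-AS1 with 364 counts in 139 barcodes (0.0231; SD 0.0226). In the nuclei, DLX6-AS1 (414 counts in 65 barcodes, 0.0574; SD 0.0157) and GAD2 (398 counts in 205 barcodes, 0.0552; SD 0.00275) had similar numbers of counts, DLX6-AS1 in fewer nuclei.

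The other members were close to the limit of detection. In the cells DLX6 had 31 counts, DLX5 34, DLX1 43, SLC32A1 44 and DLX2 78, and LHX6 was found in 99 barcodes at a level of 0.00687. In the nuclei they ran from 7 counts (DLX5 and DLX6) to 18 counts (DLX2), with 9 for LHX6, 14 for DLX1 and 17 for SLC32A1.

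Free RNA was gauged from barcodes of 10 to 100 transcripts, which hold too little to be a cell. In the cells library the GAD1 level there was 0.0987 per 10000, against 0.102 in kept barcodes, and GAD2 (0.0475 against 0.0350), DLX6-AS1 (0.0422 against 0.0231), LHX6 (0.0131 against 0.00687) and SLC32A1 (0.00670 against 0.00280) were higher in this background than in kept barcodes. DLX2 was the member with the highest ratio in the cells, 0.00496 in kept barcodes against 0.00262. In the nuclei library the background held GAD1 at 0.180 and DLX6-AS1 at 0.0489, close to the kept levels, and GAD2 at 0.0367 against 0.0552 in kept nuclei. LHX6 was lower in kept nuclei (0.00125) than in their background (0.0107). A mean level therefore did not separate expressing barcodes from free RNA, and the description below turns to how the counts were spread over barcodes.

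**Figure D1:**
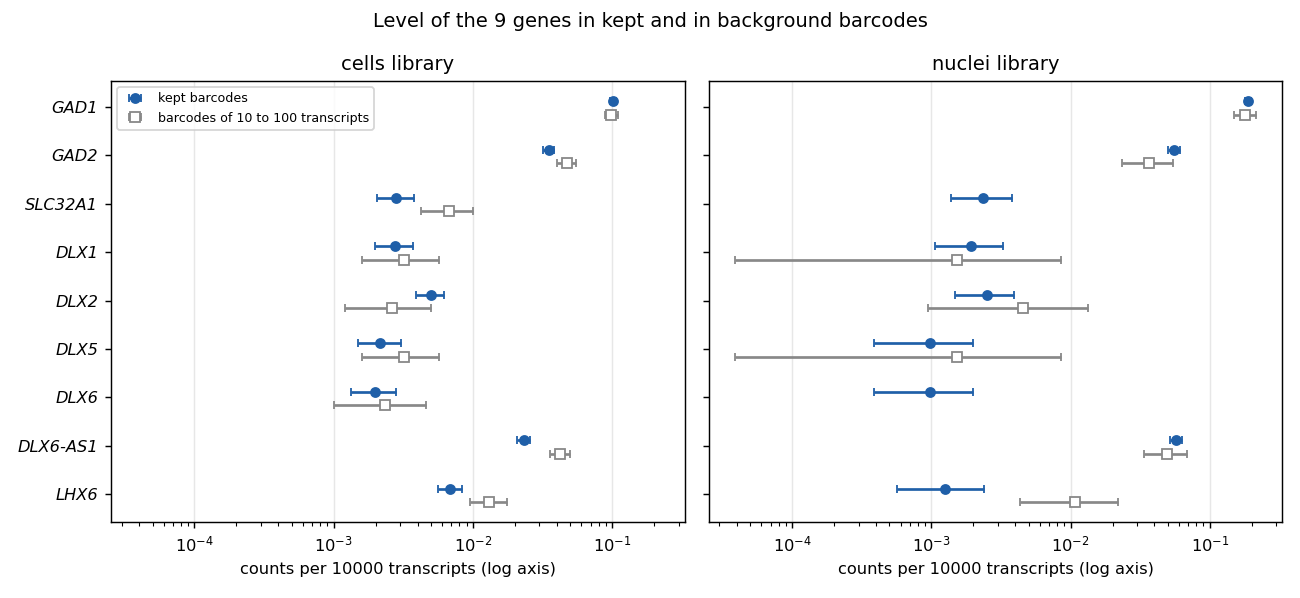
Level of each gene in counts per 10000 transcripts (log axis), for the cells (left) and the nuclei (right); filled circles are kept barcodes, open squares are barcodes of 10 to 100 transcripts, and bars are 95% exact Poisson intervals. GAD1 lies near 0.1 in the cells and near 0.19 in the nuclei, with the background next to it; SLC32A1 and DLX6 had no background count in the nuclei, so no square is drawn.

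The counts were concentrated in few barcodes, most of all for DLX6-AS1 in the nuclei. There, 25 nuclei with 5 or more DLX6-AS1 counts held 356 of its 414 counts (86.0%), at a median depth of only 3564 transcripts. The highest single nucleus held 43. In the cells, 7 barcodes with 5 or more held 219 of 364 counts (60.2%), and the highest held 72. GAD1 was less concentrated, with 73 nuclei of 5 or more counts holding 42.6% of the total, and 48 cells holding 26.5%. Those 48 cells had a median depth of 55125.5 transcripts, and the 73 nuclei one of 6679. LHX6 stood at the other end: all 9 LHX6-positive nuclei and 91 of 99 LHX6-positive cells held a single count.

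To compare barcodes at 1 depth, each was thinned to 1000 transcripts. GAD1 was then detected in 1.49% of nuclei (1.30% to 1.70%) and 0.877% of cells (0.753% to 1.02%), and without thinning in 3.86% and 4.52%. Drawing 1000 transcripts from the background alone would give 1.79% and 0.982%. GAD2 was detected in 0.457% of thinned nuclei and 0.392% of thinned cells. Choroid plexus-like barcodes had been planned as a type that should lack the members. After thinning, clusters 15 and 4 of the nuclei, which had choroid plexus markers, held GAD1 in 5.10% and 4.48%, above all nuclei. GAD2 was in 0.283% and 0% of them. Excitatory neuron-like clusters, not planned for this use, are given beside them. Cluster 0 of the nuclei (4 of 6 excitatory markers, median depth 4884) had GAD1 in 1 of 1533 nuclei after thinning, 0.0652%, and GAD2 in the same share. In the cells, excitatory neuron-like cluster 7 (median depth 7614) had 0 of 1035 for both (0% to 0.356%). Cluster 14 of the cells, also excitatory neuron-like (5 of 6 markers, 683 cells, median depth 6778), had GAD1 in 0.293% (0.0355% to 1.05%) and GAD2 in 0.439% (0.0907% to 1.28%) after thinning, and the latter interval includes the 0.392% of all cells.

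At least 2 members were detected together in 34 of 14228 thinned nuclei (0.239%; 0.166% to 0.334%) and in 6 of 20178 thinned cells (0.0297%; 0.0109% to 0.0647%). The intervals do not overlap, but they cover counting error only. Each library is 1 pooled sample, and 11 of the 34 nuclei came from well A10. Without thinning the numbers were 143 nuclei (1.01%) and 168 cells (0.833%), but those cells had a median depth of 44633 transcripts against 2574 for the rest, while the nuclei had 5020 against 3876. Co-detection in the cells thus moved with depth: 0.0366% of cells with over 1000 and up to 2000 transcripts held 2 members, and 3.77% of those above 10000. In the nuclei the same shares were 0.315% and 2.77%.

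GAD1 and GAD2 formed the main pair, in the nuclei above all. Of 205 nuclei with GAD2, 109 also held GAD1 (53.2%), and GAD2 was present in 19.9% of GAD1-positive nuclei (16.6% to 23.4%) against 0.702% of all others (0.569% to 0.856%). Depth moved with this share, since nuclei with GAD1 had a median depth of 5569 and those without it 3844. In the cells, 83 of 912 GAD1-positive barcodes held GAD2 (9.10%; 7.31% to 11.2%) against 1.68% of all others, with median depths of 11339.5 and 2475.5. After thinning, the pair was found in 19 nuclei and 1 cell. SLC32A1 went with GAD1 in 12 of its 16 nuclei and in 13 of its 37 cells.

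DLX6-AS1 was often found with the enzymes. Of 65 nuclei with DLX6-AS1, 33 held GAD2 (50.8%; 38.1% to 63.4%) and 24 held GAD1 (36.9%; 25.3% to 49.8%), against 1.21% and 3.71% of all other nuclei. Of 139 cells with DLX6-AS1, 17 held GAD2 (12.2%; 7.29% to 18.9%) and 30 held GAD1 (21.6%; 15.1% to 29.4%), against 1.94% and 4.40% of all other cells. Median depths were 13057 and 2591 transcripts. After thinning, GAD2 was in 7 and GAD1 in 5 of 30 nuclei with DLX6-AS1, and in 2 and 1 of 32 such cells. Of the 25 rich nuclei, 21 held GAD2 and 11 held GAD1. Among the coding DLX genes, DLX5 was the one most often found with DLX6-AS1. In the nuclei 5 of 6 with DLX5 held it, as did 6 of 17 cells with DLX5 (35.3%; 14.2% to 61.7%) against 0.660% of other cells. DLX5 does not overlap DLX6-AS1. DLX6, which does, had it in 2 of 7 nuclei and 6 of 25 cells, DLX1 in 1 of 12 nuclei and DLX2 in 2 of 14. LHX6 was found with GAD1 in 1 of 9 nuclei and with no other member there, and in the cells with GAD1 in 14 and GAD2 in 15 of 99 barcodes.

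**Figure D2:**
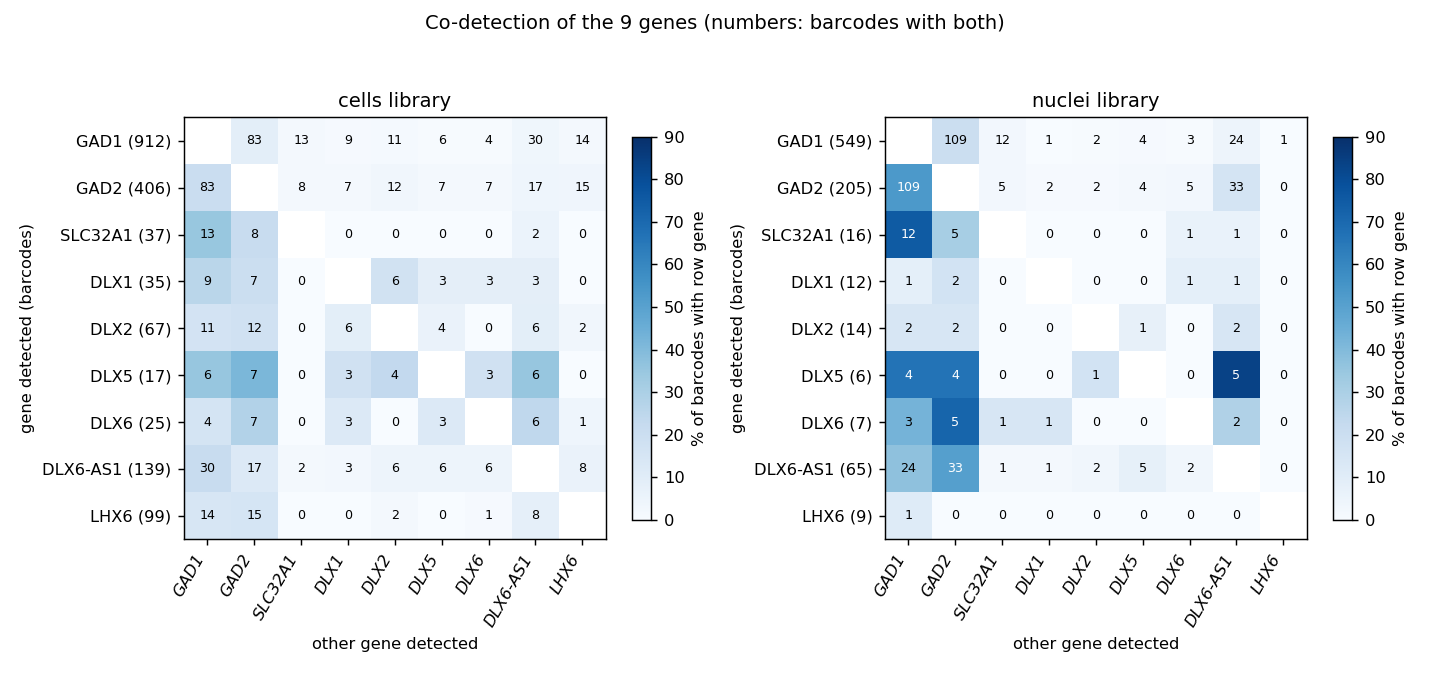
Barcodes with both genes of each pair (numbers) and their share of the barcodes with the row gene (colour, %), in the cells (left) and nuclei (right), without thinning; row labels give the barcodes with each gene. The pair GAD1 and GAD2 holds 109 nuclei and 83 cells, and the row of LHX6 is near empty in the nuclei.

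Member-positive barcodes were next set beside 6 excitatory markers, among them NEUROD2, NEUROD6 and TBR1, transcription factors of cortical glutamatergic neurons, and SLC17A6 and SLC17A7, the vesicular glutamate transporters. Of the 34 thinned nuclei with at least 2 members, 0 had 2 or more excitatory markers, an exact interval of 0% to 10.3% (a limit of 3 counts would be 8.82%). The share was 2.06% (1.83% to 2.31%) in the 14085 nuclei with fewer than 2 members before thinning, so exclusion was not detectable at this number. Nuclei with 2 members before but not after thinning are in neither set. Of the 6 such cells, 0 had 2 or more markers, an exact interval of 0% to 45.9% (50% by the limit of 3 counts).

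More barcodes were available when only the excitatory markers were thinned, an alternative chosen after the data were seen. At least 1 marker was then found in 5 of 109 nuclei with both GAD1 and GAD2 (4.59%; 1.51% to 10.4%), against 15.5% (14.9% to 16.1%) of nuclei without any member. Nuclei with GAD1 (8.38%) and with GAD2 (8.29%; 4.90% to 12.9%) also lay below the nuclei without members. Of the 549 nuclei with GAD1, however, 130 lay in cluster 4 and 82 in cluster 15, which had choroid plexus markers. The part of these nuclei in the lower share was not tested. Of the 25 nuclei rich in DLX6-AS1, 1 had at least 1 marker (4.00%; 0.101% to 20.4%), and this interval includes the value of the other nuclei. By at least 2 thinned markers, the share was 0.364% in nuclei with GAD1 (0.0441% to 1.31%), 1.46% in nuclei with GAD2 (0.303% to 4.22%), 0.620% in nuclei with GAD1 or GAD2 (0.169% to 1.58%) and 0.917% in those with both (0.0232% to 5.01%), against 2.12% (1.88% to 2.37%) of nuclei without members, and the intervals for GAD2 and for both include that value. Without thinning, at least 2 markers were found in 66 of 549 nuclei with GAD1, 19.0% of those with GAD2 and 17.4% of those with both, against 15.9% (2150 of 13522) of nuclei without members. In the cells the shares with at least 1 thinned marker were close: 22.9% of cells with GAD1 and GAD2 (14.4% to 33.4%) and 26.4% of cells without members (25.8% to 27.1%). Without thinning, 72.6% of cells with 2 members had at least 2 excitatory markers, against 23.9% of the rest. These are the deep barcodes described above. With only the markers thinned, 7 of these 168 cells had at least 2 (4.17%; 1.69% to 8.40%), against 4.41% of the rest (4.13% to 4.71%). The part of doublets in the value of 72.6% was not tested.

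Nuclei were clustered on variable genes from which all 9 members had been left out, so that member levels by cluster did not come from genes that built the clusters. GAD1 and GAD2 were highest in cluster 20, the smallest (40 nuclei from 8 wells, with 40% of the nuclei and 49.5% of the GAD1 counts from 1 well each), whose leading genes were LINC01210, GATA3, SOX14 and DMBX1, and in which 3 of 7 inhibitory neuron markers, ERBB4 and NR2F2 among them, passed the limits. There GAD1 reached 9.78 per 10000 (7.95 to 11.9; SD 1.24, n = 2 sub-libraries) and was detected in 36 of 40 nuclei, and GAD2 reached 4.05 (2.91 to 5.49; SD 0.417) in 20 of 40. No count of DLX6-AS1, of the 4 DLX genes or of LHX6 was found in these 40 nuclei, but each 0 allows up to 0.364 per 10000 (exact Poisson limit), above the 0.0575 of DLX6-AS1 in other nuclei, so a difference was not detectable at this depth. Other nuclei had GAD1 at 0.174 and GAD2 at 0.0495.

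The cluster with the most GAD1 and GAD2 counts was cluster 10 (722 nuclei from all 12 wells), led by NXPH1, GFRA1, EBF1, UNC5C and EBF3 and left unnamed. It held 562 of 1355 GAD1 counts (41.5%), 239 of 398 GAD2 counts (60.1%) and 11 of 17 SLC32A1 counts. GAD1 stood at 1.29 (1.18 to 1.40; SD 0.195) and GAD2 at 0.547 (0.480 to 0.621; SD 0.0444), and GAD1 was detected in 21.6% of its nuclei at a median depth of 4201. SLC17A6, an excitatory marker, was also higher there than in other nuclei (0.914 against 0.119 per 10000, 399 counts). With genes of at least 50 counts in the library, all 3 members that could be compared (GAD1, GAD2 and DLX6-AS1) were at least 2-fold higher in cluster 10 than elsewhere, as were 6.37% of 20150 genes. In cluster 20, 2 of the 3 were, against 11.4% of genes. Both clusters were picked for their GAD1 and GAD2 counts or levels, so for these 2 genes the comparison restates the choice.

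DLX6-AS1 had another distribution. Cluster 9 (737 nuclei), led by HIF1A-AS3, LINC02649, HSPH1 and HSP90AA1, which include genes of the hypoxia and heat shock responses, held 238 of its 414 counts in 15 nuclei (0.938 per 10000; 0.823 to 1.07; SD 0.124) and 6 of the 7 DLX5 counts. GAD1 stood at 0.229 and GAD2 at 0.134 in this cluster. Cluster 10 held a further 85 DLX6-AS1 counts. Of the 34 thinned nuclei with 2 members, 16 were in cluster 10, 9 in cluster 9 and 7 in cluster 20 (20.6%; 8.70% to 37.9%), where they made up the highest share.

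GAD1 was also found largely without GAD2. Choroid plexus-like cluster 15 (353 nuclei, 5 of 6 choroid plexus markers, led by DYNLT5, ADGB and TEKT1) held 223 GAD1 counts but 3 GAD2 counts, that is, 1.35 GAD2 counts per 100 of GAD1. The ratio was 42.5 in cluster 10 and 41.4 in cluster 20. Of 82 GAD1-positive nuclei in cluster 15, 1 held GAD2 (1.22%; 0.0309% to 6.61%), against 72 of 156 in cluster 10 (46.2%; 38.2% to 54.3%), although the former were deeper (medians of 10846.5 and 4763.5). Cluster 4 (938 nuclei, led by RSPO2, with 3 choroid plexus and 1 hem marker) was similar, with 266 GAD1 and 18 GAD2 counts, or 6.77 per 100. The GAD1 level was 0.598 in cluster 15 and 0.395 in cluster 4, and 0.0113 in excitatory neuron-like cluster 0, and the counts came from 11 and 12 of the 12 wells. The nucleus with the most GAD1 in the library (29 counts, with 0 of GAD2) was in cluster 15. In the cells, choroid plexus-like cluster 4 (1260 cells, 4 of 6 markers) held 358 GAD1 counts and 38 GAD2 counts, 10.6 per 100. A low ratio was not particular to that cluster, since clusters of the cells with no choroid plexus marker had 8.61 (cluster 15, 244 GAD1 and 21 GAD2 counts) and 12.3 (cluster 5, 154 and 19).

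ERICH2-DT, whose gene overlaps GAD1 on the opposite strand, was counted 113 times in cluster 10, 45 times in cluster 15, 37 times in cluster 4 and 14 times in cluster 20, fewer than GAD1 in each of them.

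**Figure D3:**
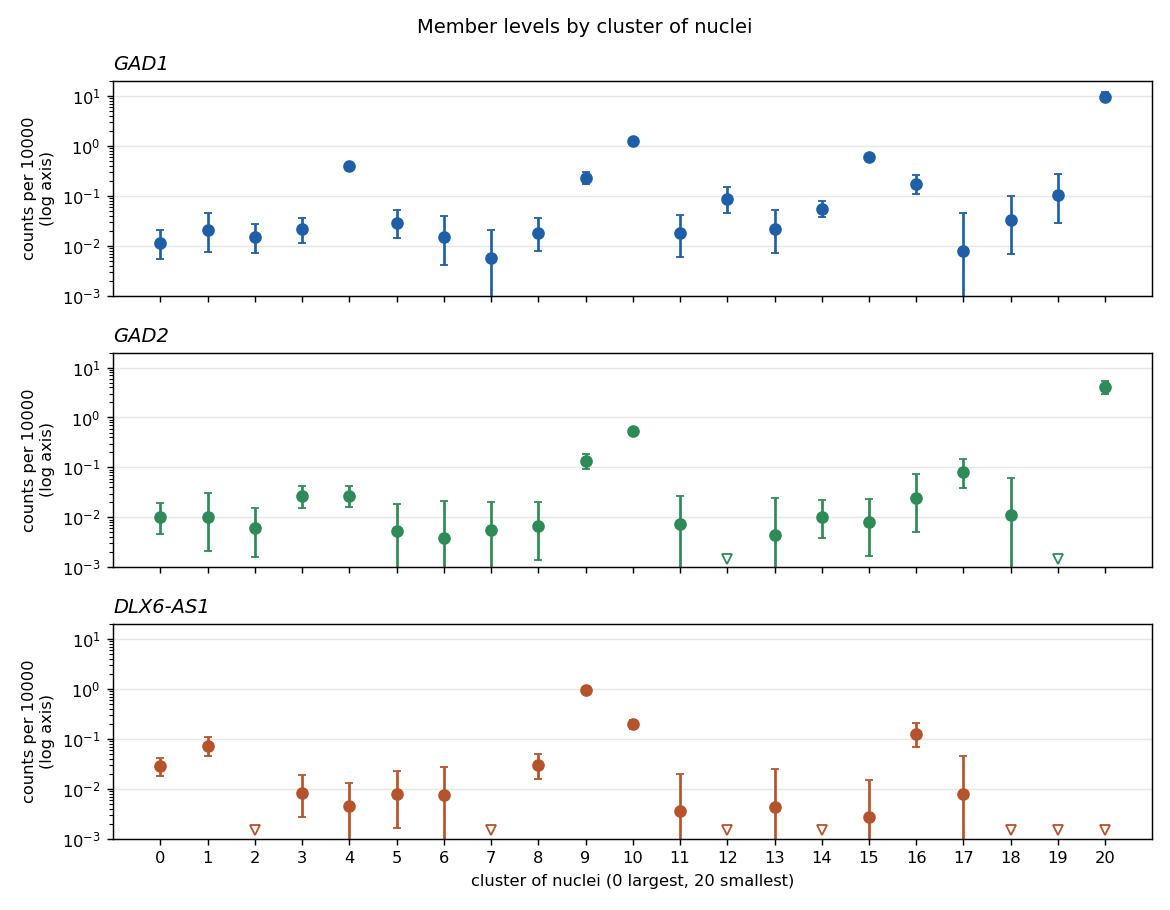
GAD1, GAD2 and DLX6-AS1 levels (counts per 10000, log axis) in the 21 clusters of nuclei, numbered from the largest (0) to the smallest (20); bars are 95% exact Poisson intervals, cut off at the lower edge, and open triangles mark clusters without a count. GAD1 and GAD2 peak in cluster 20 (9.78 and 4.05), DLX6-AS1 in cluster 9 (0.938), and clusters 4 and 15 are raised for GAD1 but not for GAD2.

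In the cells the highest level of both enzymes was in cluster 18 (164 cells, led by LHX1, RELN, LHX1-DT and SVEP1), with GAD1 at 0.635 (0.520 to 0.768; SD 0.587, n = 8 sub-libraries) and GAD2 at 0.323 (0.243 to 0.422; SD 0.364). Both SD values were about as large as the levels. The 35 DLX6-AS1 counts of this cluster came from 1 cell. Cluster 0 (2171 cells, led by PEG10, RPL35A and TOP2A, with 5 of 6 markers of dividing cells) held 155 of 364 DLX6-AS1 counts in 12 cells, and 3 of these cells held 72, 37 and 36. The cell with 72 counts, from well A1, also held 3 counts each of GAD1 and GAD2, 2 of DLX5 and 1 each of DLX1 and DLX2 at a depth of 7587. The cell with 36, from well D7, held 13 of GAD2, 7 of DLX5 and none of GAD1 at a depth of 7887. LHX6 was highest in cluster 8 (1020 cells, led by DOCK2, ENSG00000234810 and CCDC26 and left unnamed), with 42 counts, 38.9% of its total (0.0693; 0.0499 to 0.0937), and the cluster also had GAD2 at 0.150 (0.121 to 0.184). DLX6-AS1 stood at 0.0561 there (34 counts in 30 cells), and GAD1 at 0.0940 against 0.102 in other cells. LHX6, GAD2 and DLX6-AS1 were also higher in the background than in kept cells, and the part of free RNA in this cluster was not tested.

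The 109 nuclei with both GAD1 and GAD2 were then read for a list of 46 other genes of GABAergic development in 5 groups. Several of the listed regulators used outside the telencephalon were higher in them than in other nuclei. The rest of the list is not reported for these nuclei, and no share of all genes past a like fold was taken for them. LHX1 was in 38 of the 109 (34.9%; 26.0% to 44.6%) against 0.779% of other nuclei, at 0.465 per 10000 against 0.0223, or 20.8-fold. PAX2 was in 12 of the 109 against 0.368% of other nuclei, and its 137 counts there gave a 73.4-fold higher level. GATA3 was in 14 (12.8%; 7.20% to 20.6%) against 0.142%, and SOX14 in 10 (9.17%; 4.49% to 16.2%) against 0.0637%. LHX5 was 6.95-fold higher. Of the 109 nuclei, 72 lay in cluster 10 and 17 in cluster 20, and GATA3 and SOX14 are among the leading genes of cluster 20. Nuclei of those clusters without the pair were not set beside them. LHX1 and LHX5 are also genes of Cajal-Retzius cells, the RELN-secreting neurons of the cortical surface, and were among the leading genes of Cajal-Retzius-like cluster 19 of the nuclei (72 nuclei, 5 of 6 markers), which held 4 counts of GAD1 in 2 nuclei and 0 of GAD2. LHX1 and RELN also led cluster 18 of the cells. In all, 57 of the 109 nuclei (52.3%; 42.5% to 61.9%) held PAX2, LHX1, GATA3 or SOX14, against 1.32% of other nuclei. These 4 were picked from the listed regulators outside the telencephalon with the values known.

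Within the 109 nuclei, 45 held PAX2 or LHX1, 18 held GATA3 or SOX14, and 6 held both kinds. DLX6-AS1 was in 17 of the 109, and 1 of these 17 also held any of the 4 regulators, beside 57 of all 109 (52.3%). A coding DLX gene was in 8, and 0 of these held a regulator. Both numbers are small, no interval was taken for them, and the 4 regulators were picked with the values known. Neither DLX6-AS1 nor a regulator was detected in 36. The 25 nuclei rich in DLX6-AS1, a group chosen after its values were seen, held no count of the 4 regulators in 123155 transcripts together, while 32 of the 73 nuclei with 5 or more GAD1 counts held at least 1. For 0 of 25 nuclei the exact interval is 0% to 13.7% (12% by the limit of 3 counts), which includes the 1.72% of all other nuclei, and the nuclei rich in GAD1 were deeper (median 6679 against 3564). Among nuclei with GAD1 or GAD2, a regulator was present in 2 of 40 with DLX6-AS1 (5.00%; 0.611% to 16.9%) and in 110 of 605 without it (18.2%; 15.2% to 21.5%), and these intervals overlap. Over all kept nuclei the order was the reverse, 2 of 65 with DLX6-AS1 (3.08%; 0.375% to 10.7%) against 1.71% without it. Well A10 held 24 of the 65 nuclei with DLX6-AS1 and 15 of the 25 rich in it. A difference between wells therefore cannot be told apart here. In cells with GAD1 or GAD2 a regulator was present in 5 of 38 with DLX6-AS1 (13.2%; 4.41% to 28.1%) and in 10.4% without it, and over all kept cells in 12.9% and 2.55%, with median depths of 13057 and 2591.

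Nuclei rich in DLX6-AS1 carried other genes of the list. ERBB4, the neuregulin receptor of migrating interneurons, stood at 46.0 per 10000 (42.2 to 49.9) against 4.11 elsewhere, or 11.2-fold, and was in 19 of the 25. SP8, a zinc finger factor of the lateral and caudal eminences, was 10.8-fold higher on 5 counts in 5 nuclei, and CALB2, the calcium-binding protein calretinin, 6.35-fold higher on 15 counts in 4. ERBB4 and CALB2 were not particular to these nuclei. Clusters in which ERBB4 passed the marker limits included clusters 4 and 15, which had choroid plexus markers. CALB2 was among the leading genes of excitatory neuron-like cluster 0. MEIS2 was 2.30-fold higher in the rich nuclei (475 counts in 23 nuclei). DLX2 had 5 of its 18 counts in these nuclei and DLX5 4 of its 7. NR2F2 had 0 counts there, which allows up to 0.300 per 10000 (exact Poisson limit), above its level of 0.123 in other nuclei.

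Markers of the medial eminence and its interneurons were almost without counts. NKX2-1, the factor that patterns this eminence, and SST, the peptide somatostatin, had no count in any kept nucleus, and LHX8 had 13. GSX1 and GSX2, progenitor factors of the eminences, had 1 count each. Of the 24 genes of the list with at least 50 counts in the nuclei, 10 were at least 2-fold higher in cluster 10 (6.37% of all genes were) and 12 in cluster 20 (11.4% of all genes). By group, in cluster 10 these were all 3 regulators outside the telencephalon, 3 of 6 transmitter and migration genes, 2 of 3 subtype genes, 2 of 11 postmitotic factors and 0 of 1 progenitor factors. In cluster 20 they were 2 of the 3 regulators, 4 of 6 transmitter and migration genes, 1 of 3 subtype genes, 5 of 11 postmitotic factors and 0 of 1 progenitor factors. Genes of this list, unlike the members, could enter the clustering, so those counts are a description.

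The regulators were also found in the cells. Of 83 cells with GAD1 and GAD2, 41 held 1 of the 4 regulators (49.4%; 38.2% to 60.6%) against 2.42% of others, as did 3 of the 9 that also held DLX6-AS1 and 5 of the 13 that also held a coding DLX gene. With a median depth of 54628 transcripts, these cells could hold many genes at low levels, and the fold over other cells was 16.8 for SOX14, 5.31 for GATA3, 2.88 for PAX2 and 2.62 for LHX1. Of the 7 cells rich in DLX6-AS1, 4 had depths of 6361 to 7887 transcripts, around the upper quartile of kept cells (7223.75), and 3 lay in cluster 13, with the deepest at 278886. All 7 held GAD2 and 6 held DLX5. Of the regulators, 1 count of PAX2 was found, in 1 of the 7. In these 7 cells CALB2 was 9.33-fold higher than elsewhere (30 counts in 5 cells) and SCGN, the calcium-binding protein secretagogin, stood at 0.132 per 10000 against 0.0120 (6 counts in 3 cells).

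**Figure D4:**
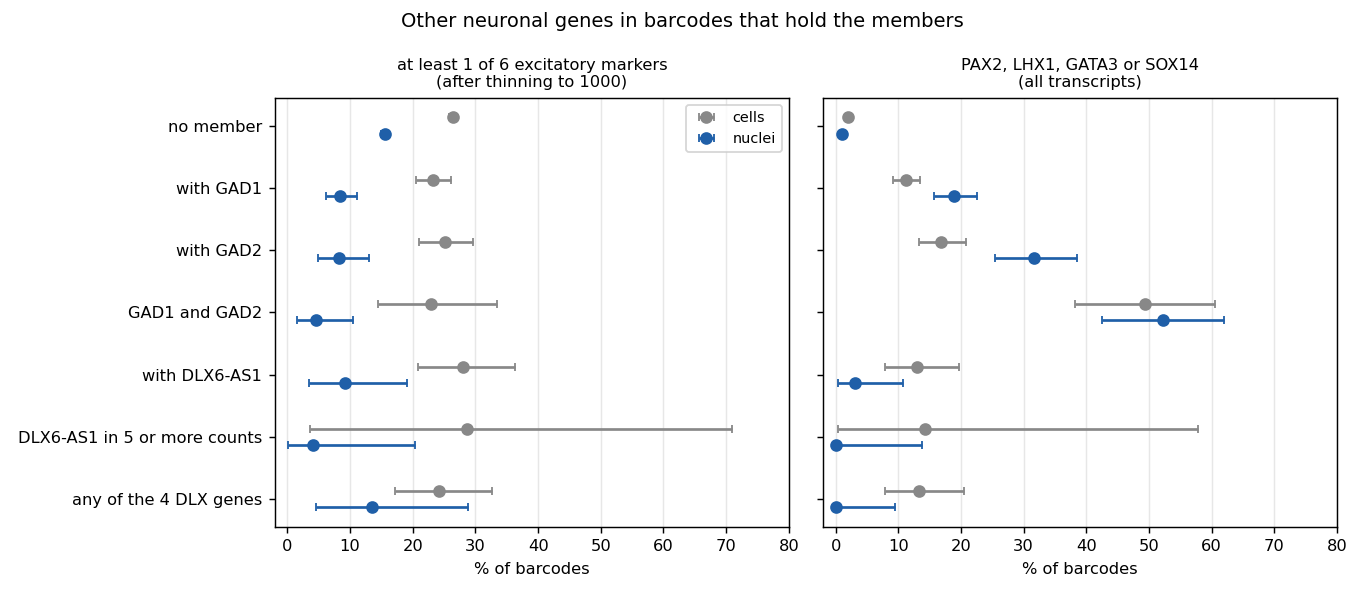
Share of barcodes (%) with at least 1 excitatory marker after thinning (left) and with PAX2, LHX1, GATA3 or SOX14 (right), for barcodes holding the genes named on the vertical axis; grey is cells, blue is nuclei, and bars are 95% exact binomial intervals. Nuclei with GAD1 and GAD2 have the highest share of regulators (52.3%), and nuclei rich in DLX6-AS1 have 0 of 25 (0% to 13.7%).

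The genes whose levels followed the mean of the 9 members most closely were found over all kept barcodes, as a description in sparse counts that share depth and library. In the nuclei, Pearson's r over 14228 barcodes was 0.317 for NRXN3, 0.308 for LHX1-DT, 0.299 for UNC5C, 0.296 for TFAP2A, 0.268 for ERICH2-DT, 0.266 for SKOR2, 0.233 for CACNA2D3, 0.226 for LINC01414, 0.221 for ADGRL3 and 0.218 for CA8. TFAP2A, a transcription factor of hindbrain and spinal cord interneurons among other tissues, was in 25.2% of nuclei with 2 members and 0.398% of others. SKOR2, a corepressor known from cerebellar Purkinje cells, was in 18.2% against 0.433%, and NRXN3 in 99.3% against 44.3%. All 10 genes were picked because they followed the members, so such differences were fixed by that choice. In the cells all values were low, from 0.101 for ERBB4, 0.0956 for ADGRL3 and 0.0955 for GATA3, through CACNA2D3, LINC01210, TENM2, PTPRT, LINC01414 and TMEM114, to 0.0820 for LRMDA. ADGRL3, CACNA2D3 and LINC01414 were on both lists, 3 of 10 each. TFAP2A and SKOR2 were not on the list of the cells. There they were in 4 and 3 of 83 cells with GAD1 and GAD2 (4.82% and 3.61%), against 0.488% and 0.587% of other cells.

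Members were spread over the first-round wells, each of which stands for cells or nuclei of unknown condition. GAD1 was found in 45 of 48 wells of the cells and in all 12 of the nuclei. Across the nuclei wells the GAD1 level ran from 0.113 in A12 to 0.435 in A3, with a median of 0.187, and GAD2 from 0.0129 in A5 to 0.165 in A3, with a median of 0.0576. Well A3 held 794 nuclei and had the highest share with 2 members, 2.90%, against a median of 0.859% and a lowest value of 0.213%. In cells, where wells held 39 to 2606 barcodes, GAD1 ran from 0 to 0.296 (D12), with a median of 0.0927.

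DLX6-AS1 was spread unevenly over the wells. Well A10 held 250 of its 414 counts in the nuclei (60.4%) and 15 of the 25 rich nuclei, but 15.9% of all kept nuclei. Next were A11 with 54 counts and A7 with 36, A5 had none, and A4 stood out by level (0.131, from 26 counts in 701 nuclei). Without A10 the level fell from 0.0574 to 0.0290. In the cells, 115 of 364 counts came from A1, which held 1.71% of kept cells, and 79 from D7, while 16 of 48 wells had none. Single cells made up most of both values. In A1, 2 cells held 72 and 35 counts, and in D7, 2 cells held 37 and 36. The level without A1 was 0.0161. DLX5, with 34 counts in the cells, had 32.4% of them in D7 and none in 36 wells. The same 2 cells of D7 held 4 and 7 of these DLX5 counts. GAD1 and GAD2 had at most 17.4% and 17.3% of their counts in 1 nuclei well. The 34 thinned nuclei with 2 members came from 9 wells, 11 of them (32.4%; 17.4% to 50.5%) from A10, and the 6 thinned cells from 4 wells.

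**Figure D5:**
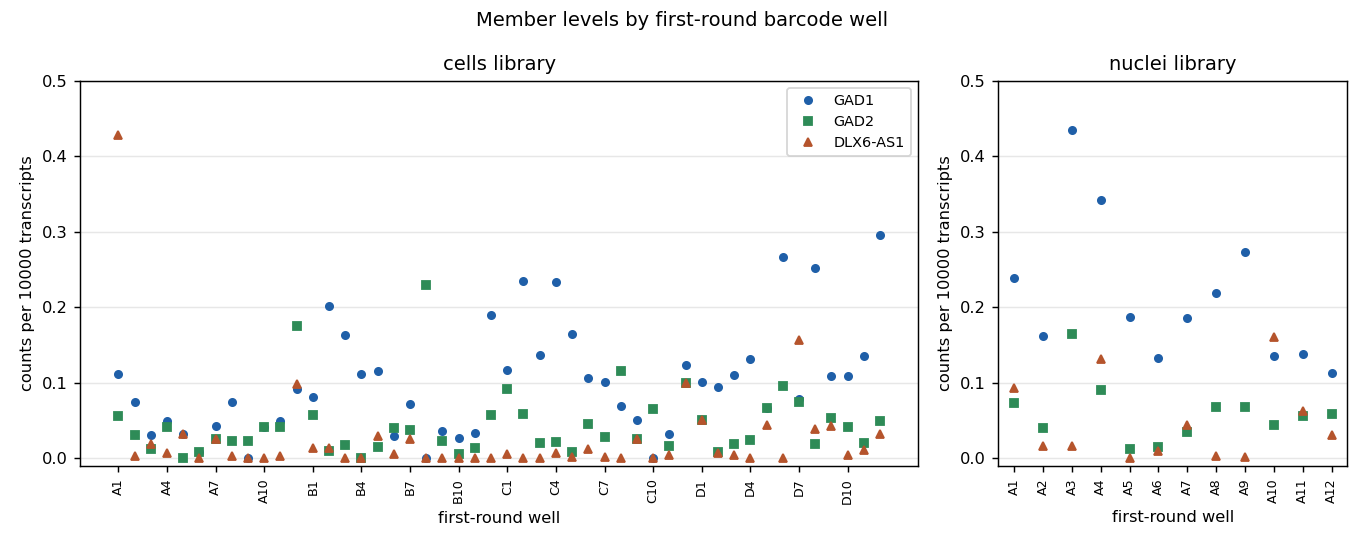
GAD1, GAD2 and DLX6-AS1 levels (counts per 10000 transcripts) in each first-round well of the cells (48 wells, left, not all of them named) and nuclei (12 wells, right). DLX6-AS1 stands apart in well A1 of the cells (0.428), where 2 cells held 72 and 35 of its 115 counts. In the nuclei DLX6-AS1 is highest in A10 (0.161) and A4 (0.131), and GAD1 and GAD2 are highest in A3.

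Set side by side, nuclei and cells differed by gene. DLX6-AS1 was 2.48-fold higher per 10000 in nuclei (counting interval 2.15 to 2.86), GAD1 1.84-fold (1.71 to 1.98) and GAD2 1.58-fold (1.38 to 1.80). The value of DLX6-AS1 rests on 1 well and 25 nuclei, as described above, and without well A10 its level in nuclei was 0.0290, against 0.0231 in all cells and 0.0161 in cells without well A1. LHX6 went the other way, at 0.182 of its level in cells (0.0809 to 0.358). DLX2 was at 0.503 of its level in cells (0.283 to 0.848). For SLC32A1 (0.842) and DLX1 (0.710; 0.359 to 1.32) the interval includes equal levels. Thus 1 of the 7 members with at least 50 counts in both libraries together was at least 2-fold higher in nuclei, against 0.502% of 29474 genes, and 1 was at least 2-fold higher in cells, against 33.5%. The median log2 ratio of nuclei over cells was -0.54 over all genes with counts in both and -0.25 over the 7 members. The libraries differ in stage, conditions and preparation, which cannot be told apart, and each is 1 sample.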

How the data were processed

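The 2 split-seq libraries were analysed from the raw counts the authors deposited, 1 whole number for each gene in each barcode, before any filter, scaling or removal of free RNA. These came from the Parse pipeline, run on 8 sub-libraries of cells and 2 of nuclei, with GRCh38 as the reference. The members and gene lists were chosen with earlier results of these data known. The genes named are the 9 members, the excitatory markers, the 46 listed genes and, per library, the 10 genes most alike to the members (in at least 50 kept barcodes); cluster-leading genes, ERICH2-DT, and sets of barcodes with 5 or more counts were added after values were seen. The 4 regulators followed together were also picked with the values known. Barcodes were thinned to 1000 transcripts without replacement (seed 0). Clusters used 2000 variable genes without the members, 30 principal components, 15 neighbours and Leiden resolution 1, and were named from at least 3 fixed markers at 1.5 times the level elsewhere in 25% of barcodes. No fold was taken at 3 counts or fewer. With 1 sample per library, no test was run. Folds, thinning and the ranking of alike genes were tested on simulated data, with genes of more counts than most members had in the nuclei. Co-detection, clustering, background and marker exclusion were not simulated. Tools were Python 3.11.15, scanpy 1.11.5, numpy 2.4.6, scipy 1.17.1 and igraph 0.11.9. Some listed genes are not reported here.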

Additional observations from a re-analysis of the deposited data

Results flagged for a closer look

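Counts of the members were found in barcodes of 10 to 100 transcripts, which lie outside the kept barcodes and served only as a measure of free RNA. A count of 0 would have allowed up to 3 counts. In the cells library these barcodes held 339 counts of GAD1, 163 of GAD2 and 145 of DLX6-AS1, among 34343756 transcripts. In the nuclei library they held 118 of GAD1, 24 of GAD2 and 32 of DLX6-AS1, among 6547075 transcripts. No group held 4 to 10 samples, so no sample could be tested for standing apart.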

How the results depend on the processing

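The share of barcodes with at least 2 members, 0.0297% of cells and 0.239% of nuclei at 1000 transcripts, rose with the transcripts used, to 0.134% and 0.475% at 2000 and to 0.833% and 1.01% without thinning. The share of them with at least 2 excitatory markers, 0% in both, was 72.6% in cells and 14.7% in nuclei without thinning. In nuclei, 1 nucleus (0.00703%, 100% of them in 1 well) held at least 3 members, and without DLX6-AS1 the share with 2 was 0.155%. The cluster richest in these nuclei held 20.6% of them, and 85.3% at Leiden resolution 0.5, where it had 875 nuclei. Thinned to 1000 transcripts, 2 members instead of 1 were at least 2-fold higher in nuclei (GAD1 2.19-fold, DLX6-AS1 3.58-fold). The DLX6-AS1 level of nuclei was 0.0290 without well A10, instead of 0.0574. Of all alternative values, 12 left the 95% interval of the main value (for the number of members, moved by over 1.5 times; for the DLX6-AS1 level, by over 1 SD) and 43 did not. With 6 cells and 34 nuclei that interval is wide, so that some of the 43 still moved by over 1.5 times, such as the share of the 6 cells in 1 well, 33.3%, which was 10.7% without thinning and 66.7% with 3 members. Among the 43 were a limit of 10% on mitochondrial transcripts, leaving out the deepest 5% of cells or 3% of nuclei in place of a doublet caller, and a further random draw chosen after seeing the data. With 6 cells and 34 nuclei, exclusion of excitatory markers could not be measured at equal depth. No paired analysis was possible because each library is 1 sample and no result comes from a test.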
